A study of Mus musculus with 6 samples.

Results

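The 10 genes followed here stand for molecules through which macrophages stimulate or restrain T cells, measured in oxLDL-treated peritoneal macrophages of 2 genotypes. They were taken by name from the 27240 genes of the deposited expression table, where all 10 were found. They comprise the CD28-family ligand genes Cd80, Cd86 and Icosl, the PD-1 ligand genes Cd274 and Pdcd1lg2, the TNF-superfamily ligand gene Tnfsf9, the receptor genes Cd40 and Cd200r1, and 2 maturation genes, Cd83 and Fscn1. Cd40 and Cd200r1 encode receptors and Fscn1 an intracellular actin-bundling protein, so not every gene of the set encodes a ligand.

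T cells need a further signal beside antigen, and CD80 and CD86 on the presenting cell give it by binding CD28. The same ligands bind the inhibitory receptor CTLA-4, while PD-L1 and PD-L2 bind PD-1 and dampen the T cell. CD40 receives the CD40 ligand of activated T cells and signals through TRAF proteins to NF-κB, and CD200R1 receives an inhibitory signal from CD200. In atherosclerotic plaques, where macrophages take up oxidised lipoprotein, both stimulatory and inhibitory pairs are known to act.

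Poly(A) RNA was sequenced from mouse primary peritoneal macrophages, 3 libraries of genotype WT and 3 of genotype KO, all treated with oxLDL (oxidised low-density lipoprotein). The labels do not name the deleted gene, the way it was deleted, the strain, the age, the oxLDL dose or the duration. The series title names the kinase DCLK1, and the kinase IKKβ that activates NF-κB. Libraries without oxLDL were not analysed here, and nothing in the labels says that replicates came from separate animals, so the p-values measure the spread between these libraries, which may be technical.

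Levels are given as CPM (counts scaled to library size by the trimmed-mean method), and levels of different genes are compared only as FPKM, the authors' depth-scaled value per kilobase of transcript. Total counts lay between 68053008 and 79090732. Dclk1 had 494, 498 and 584 counts in the wild type against 415, 431 and 377 in knockout libraries, or 77.6% of wild type in CPM. No knockout library reached a wild-type one, but Dclk1 did not pass the test (edgeR adjusted p = 0.332). Which part of which gene was deleted is not stated, so this count is a limited check of the labels. Wild-type replicate 1 stood apart on the first principal component, at -60.7. The other wild-type libraries were at -16.2 and -5.94 and the knockout libraries at 10.9 to 37.3. Fitted values of the 10 genes that turn on wild-type replicate 1 are therefore also given without it. The gene lists are described with all 6 libraries only, so their values may turn on it. The extraction protocol speaks of adipose tissue where the labels say macrophages, and macrophage markers were abundant: Adgre1 was at 1057 and 1016 CPM and Cd68 at 1994 and 1993 CPM in the wild type and the knockout. Lyz2, the lysozyme gene, fell from 16349 ± 652 to 7969.6 ± 42.0 CPM (SD, n = 3 each, edgeR adjusted p = 6.5e-06). In bulk RNA fewer cells of a type and less RNA per cell cannot be told apart, here and in all that follows.

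The 10 genes spanned a wide range of length-scaled levels. Cd274, which encodes PD-L1, was the most abundant at 178 ± 12.1 FPKM for the wild type against 159 ± 3.90 FPKM for the knockout (SD, n = 3 each). Cd200r1 followed at 54.2 ± 5.04 and 57.9 ± 3.39 FPKM. Cd86 (7.88 and 8.14 FPKM), Cd83 (7.02 and 6.21), Fscn1 (5.0 and 3.53), Cd40 (3.13 and 2.36), Cd80 (2.78 and 2.79) and Tnfsf9 (1.95 and 1.81) formed the middle of the order in the wild type and the knockout. Icosl (0.536 and 0.665 FPKM) and Pdcd1lg2 (0.326 and 0.295 FPKM) were the lowest. In wild type the libraries of Cd86 and Cd83, of Cd40 and Cd80, of Cd80 and Tnfsf9, and of Icosl and Pdcd1lg2 overlapped, so these neighbours were not separated. In the knockout the mean of Cd80 was above that of Cd40, though these 2 genes overlapped, as did Cd40 and Tnfsf9.

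**Figure D1:**
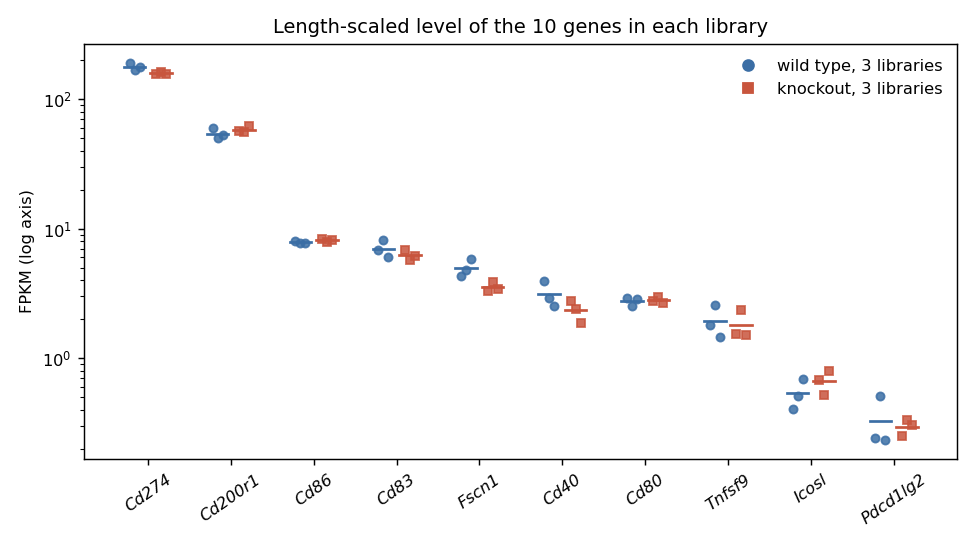
Deposited FPKM (log axis) of each gene in each of the 6 libraries, ordered by wild-type mean, with horizontal lines for group means. Cd274 lies near 178 FPKM in wild type and Pdcd1lg2 near 0.326 FPKM, and only Cd274 and Fscn1 have knockout libraries all below all wild-type ones.

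None of the 10 genes differed between knockout and wild type after adjustment over the 16239 genes tested (edgeR quasi-likelihood test, Benjamini-Hochberg adjusted p under 0.05), where 0.0677% of all genes passed. At an unadjusted p under 0.05 there were 2, Fscn1 and Cd274, both with lower knockout values, against 10.4% of all genes, 5.71% with lower values. DESeq2 called 1 of the 10, Fscn1, and 2.59% of all genes, while limma on log2(FPKM + 1) called 0 of the 8 it could test and 0.0765% of all genes. The groups did not overlap for the same 2 genes, both lower in knockout, against 17.6% of all genes in either direction, 8.89% lower and 8.68% higher. With 2 of 10, the set did not stand out from that share. Fitted values were below 0 for 7 genes and above 0 for 3, against 50.5% below 0 over all genes, and the median log2 fold change was -0.14 against -0.0019 for all genes tested.

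**Figure D2:**
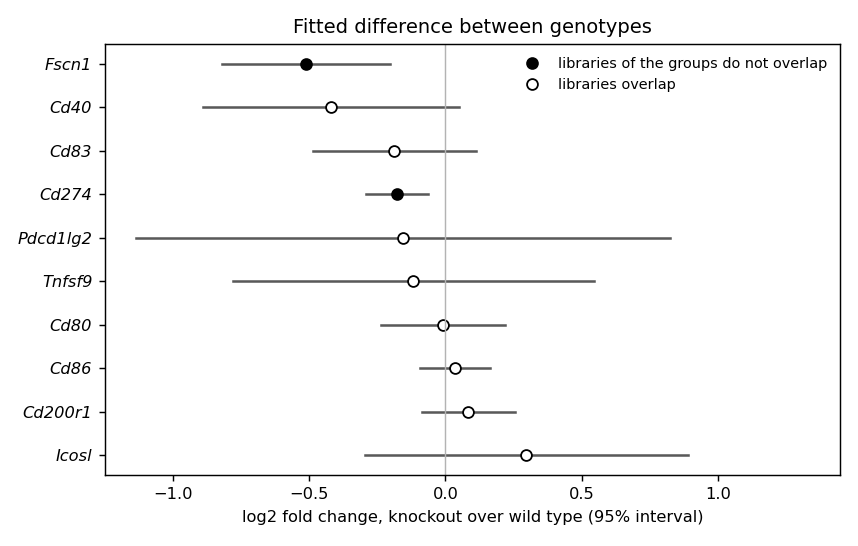
Fitted log2 fold change of knockout over wild type (horizontal axis) for each gene, with its 95% interval from the edgeR fit. Filled points mark genes whose libraries do not overlap between groups, and the intervals of Fscn1 and Cd274 alone lie wholly below 0 before adjustment.

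Cd80 and Cd86, the 2 ligands of CD28 and CTLA-4, lie on chromosome 16 of GRCm38, Cd80 at 38455561 to 38496335 (plus strand) and Cd86 at 36603869 to 36666081 (minus strand). Cd80 was at 12.1, 10.6 and 11.9 CPM in wild-type replicates 1, 2 and 3, against 11.3, 12.3 and 10.9 CPM in knockout replicates 1, 2 and 3. Its libraries interleaved, and the log2 fold change was -0.0074 (95% interval -0.23 to 0.22, edgeR adjusted p = 0.991). Cd86 was the steadiest of the 10, at 32.8, 32.0 and 32.0 CPM for the wild type against 33.5, 32.1 and 33.5 CPM for the knockout. Its log2 fold change was 0.04 (95% interval -0.09 to 0.16, edgeR adjusted p = 0.881), and its interval was among the narrowest of the 10. The ratio of Cd86 to Cd80 within a library, in FPKM, was 2.84 ± 0.177 for the wild type against 2.92 ± 0.244 in knockout libraries (SD, n = 3 each, exact two-sided permutation p = 0.9). Libraries of both genotypes thus carried more Cd86 than Cd80 transcript per length.

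Icosl, at 78069302 to 78079525 on the plus strand of chromosome 10, encodes the ligand of ICOS, a receptor of activated T cells. It had 144, 197 and 282 counts in the wild type against 260, 195 and 302 counts for the knockout, or 2.12, 2.65 and 3.59 against 3.48, 2.67 and 4.13 CPM. Wild-type replicate 1 was the lowest and knockout replicate 3 the highest, and the groups overlapped. The fitted log2 difference was 0.30 (SE 0.253, 95% interval -0.30 to 0.89, edgeR adjusted p = 0.752), 0.13 without wild-type replicate 1 and 0.14 without knockout replicate 3.

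The PD-1 ligand genes are neighbours on the plus strand of chromosome 19, Cd274 at 29367455 to 29388095 and Pdcd1lg2 at 29410919 to 29471161, with 22823 bases between them. Cd274 stood at 628 ± 259 times the FPKM of Pdcd1lg2 for the wild type against 544 ± 71.4 times in knockout libraries (SD, n = 3 each, exact two-sided permutation p = 0.9). Their RefSeq promoter windows (GRCm38.p6, plus strand, 250 bases before to 50 after the RefSeq start) are shown because the genes are adjacent and so unequal in level. That of Cd274 is chr19:29367188-29367487 and that of Pdcd1lg2 is chr19:29410669-29410968. Capitals mark matches, on either strand, to the motifs searched.
Cd274 promoter: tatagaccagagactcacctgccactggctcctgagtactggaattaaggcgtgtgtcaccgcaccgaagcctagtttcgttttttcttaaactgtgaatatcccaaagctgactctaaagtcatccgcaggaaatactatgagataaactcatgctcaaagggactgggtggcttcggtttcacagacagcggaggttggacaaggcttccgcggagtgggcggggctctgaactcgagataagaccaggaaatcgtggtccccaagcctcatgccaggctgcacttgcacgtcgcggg
Pdcd1lg2 promoter: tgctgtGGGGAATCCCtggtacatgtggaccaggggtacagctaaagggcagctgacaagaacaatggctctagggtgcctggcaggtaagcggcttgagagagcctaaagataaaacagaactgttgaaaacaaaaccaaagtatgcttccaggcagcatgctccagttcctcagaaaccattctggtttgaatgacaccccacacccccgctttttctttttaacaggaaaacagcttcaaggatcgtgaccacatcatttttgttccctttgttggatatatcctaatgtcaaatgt
The motifs were chosen with the sequences in view. They included an NF-κB-like pattern of GGG and CC with 5 bases between them. Also searched was an interferon response core of 2 GAAA with 2 bases between them. The others were the GAS element TTCNNNGAA, the cyclic AMP element TGACGTCA, the AP-1 element TGANTCA and the TATA box TATAAA. Both strands were searched and matches may overlap. The Pdcd1lg2 window holds 1 NF-κB-like match, GGGGAATCCC, which begins 244 bases before the start, and such a match is found in 50.8% of all 32851 promoter windows of this length. The Cd274 window holds none of the motifs searched. The shares of all windows with the others are 3.44% for the interferon core, 8.3% for GAS, 1.79% for the cyclic AMP element, 7.81% for AP-1 and 13.6% for TATAAA. A match is a string of letters and not a shown binding site.

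Cd274 was at 771, 679 and 713 CPM in wild-type replicates 1, 2 and 3, against 626, 656 and 629 CPM in knockout replicates 1, 2 and 3. Every knockout library lay below every wild-type library, with wild-type replicate 1 the highest. The knockout mean was 88.4% of the wild-type mean, with a log2 fold change of -0.18 (SE 0.0489, 95% interval -0.29 to -0.06), which did not pass over all genes (edgeR adjusted p = 0.250, DESeq2 adjusted p = 0.088). Without wild-type replicate 1 the log2 fold change was -0.13 (edgeR adjusted p = 0.418), and over all alternatives the adjusted p was 0.088 to 0.526. Of the exonic bases of Cd274, 511 of 3622 are shared with an antisense gene, AC119228.1. No gene of that name was found in the deposited table, so it was not analysed here. Strand use in counting is not stated. In GENCODE M21, 12.4% of its 50-base sequences also occur in other genes on either strand. Most of these are opposite-strand matches to the same AC119228.1, with 10.4% of the sequences of Cd274.

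Pdcd1lg2, which encodes PD-L2, had 36, 84 and 41 counts in the wild type against 41, 54 and 49 counts for the knockout. Its level was 0.530, 1.13 and 0.521 CPM for the wild type against 0.548, 0.738 and 0.670 CPM for the knockout, with wild-type replicate 2 above all others. The log2 fold change was -0.16 (95% interval -1.14 to 0.82, edgeR adjusted p = 0.933), and 0.31 without wild-type replicate 2. This interval contains the fitted value of Cd274, -0.18, as well as 0.

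Tnfsf9, at 57105325 to 57107757 on the plus strand of chromosome 17, encodes the ligand of 4-1BB, a costimulatory TNF receptor. It was at 2.60, 3.77 and 2.11 CPM for the wild type against 2.22, 3.40 and 2.19 CPM for the knockout. Replicate 2 was the highest in both groups, and the groups overlapped throughout (log2 fold change -0.12, 95% interval -0.78 to 0.54, edgeR adjusted p = 0.926). Without wild-type replicate 2 the log2 fold change was 0.14. Its exons share 192 of 1290 bases with the antisense gene Gm11110, at 1.96 and 1.89 CPM, so the counts of these 2 genes are uncertain.

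Cd40, at 165055627 to 165072948 on the plus strand of chromosome 2, was at 15.0, 11.3 and 9.66 CPM in wild-type replicates 1, 2 and 3. In knockout replicates 1, 2 and 3 it was at 10.6, 9.16 and 7.11 CPM. Wild-type replicate 3 lay below knockout replicate 1, so the groups overlapped although wild-type replicate 1 was well above every knockout library. The knockout mean was 74.7% of the wild-type mean (log2 fold change -0.42, SE 0.201, 95% interval -0.89 to 0.05, edgeR adjusted p = 0.536). The value depended on single libraries: it was -0.23 when wild-type replicate 1 was left out, -0.28 when knockout replicate 3 was, and -0.56 when knockout replicate 1 was. Set against Cd80 in the same library, the FPKM ratio was 1.12 ± 0.234 for the wild type against 0.844 ± 0.158 in knockout libraries (SD, n = 3 each, exact two-sided permutation p = 0.2).

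Cd200r1, at 44765736 to 44794978 on the plus strand of chromosome 16, was at 223, 188 and 198 CPM for the wild type against 210, 206 and 229 CPM for the knockout. The groups overlapped, since wild-type replicate 1 was above knockout replicates 1 and 2. The fitted log2 difference was 0.08 (SE 0.0730, 95% interval -0.09 to 0.25, edgeR adjusted p = 0.762), and 0.16 without wild-type replicate 1. Its paralog Cd200r4, an activating-type relative with which it shares 1.16% of its 50-base sequences, was at 186, 158 and 166 CPM for the wild type against 158, 158 and 153 CPM for the knockout (edgeR adjusted p = 0.556).

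Cd83, at 43784775 to 43803132 on the plus strand of chromosome 13, encodes a surface protein of activated antigen-presenting cells that stabilises MHC class II and CD86. It was at 19.6, 23.6 and 17.4 CPM for the wild type against 19.5, 16.2 and 17.5 CPM for the knockout. Wild-type replicate 2 was the highest and the other libraries interleaved (log2 fold change -0.19, 95% interval -0.49 to 0.11, edgeR adjusted p = 0.678). Without wild-type replicate 2 the log2 fold change was -0.06.

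Fscn1, which encodes the actin-bundling protein fascin of mature dendritic cells and migrating cells, showed the largest difference of the 10 in fold. It lies at 142960343 to 142973185 on the plus strand of chromosome 5. Its level was 14.4, 16.4 and 19.8 CPM in wild-type replicates 1, 2 and 3 and 11.1, 12.9 and 11.4 CPM in knockout replicates 1, 2 and 3. Every knockout library lay below every wild-type library, and wild-type replicate 3 was the highest. The knockout mean was 70.1% of the wild-type mean (log2 fold change -0.51, SE 0.132, 95% interval -0.82 to -0.20), which did not pass with edgeR (adjusted p = 0.216) and passed with DESeq2 (adjusted p = 0.025), the lowest over all alternatives. With single libraries left out the log2 fold change lay between -0.61 and -0.38 and edgeR's adjusted p between 0.229 and 0.505, the smallest difference being without wild-type replicate 3.

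The Fscn1 promoter window (chr5:142960105-142960404, RefSeq, GRCm38.p6, plus strand) is printed because this gene had the largest fitted difference, with the same marking of motifs.
Fscn1 promoter: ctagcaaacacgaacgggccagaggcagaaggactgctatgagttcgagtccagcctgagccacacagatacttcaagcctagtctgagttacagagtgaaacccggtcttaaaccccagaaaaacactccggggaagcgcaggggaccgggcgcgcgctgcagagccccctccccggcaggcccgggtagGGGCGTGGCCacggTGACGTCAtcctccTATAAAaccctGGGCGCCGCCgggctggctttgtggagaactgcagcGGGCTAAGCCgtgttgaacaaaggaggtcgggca
It holds 1 cyclic AMP element, TGACGTCA, that begins 45 bases before the start, and a TATAAA that begins 31 bases before it. It also holds 3 NF-κB-like matches, GGGCGTGGCC, GGGCGCCGCC and GGGCTAAGCC, in a window of 61.7% G and C, against 52.7% in that of Cd274. RefSeq windows were matched for 5 of the 10 genes, Cd80, Icosl, Cd274, Pdcd1lg2 and Fscn1, and not for Cd86, Tnfsf9, Cd40, Cd200r1 and Cd83.

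**Figure D3:**
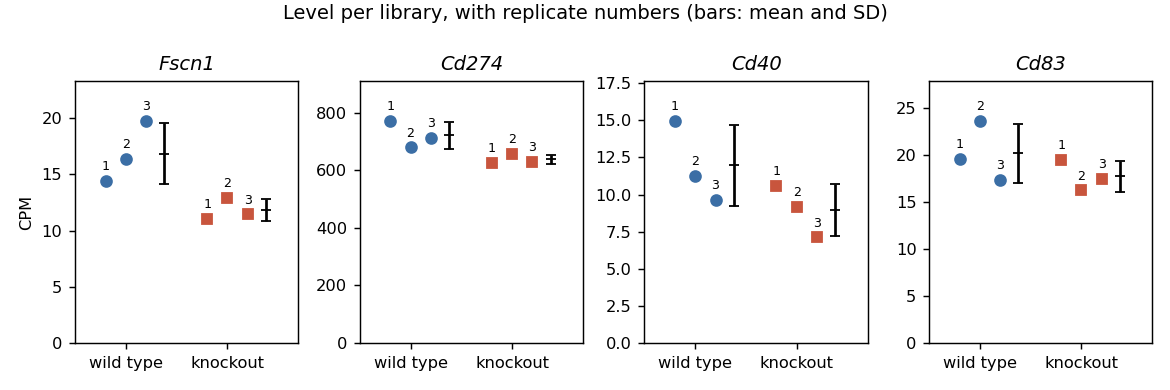
CPM (axis from 0) of Fscn1, Cd274, Cd40 and Cd83 in each library, labelled by replicate number, with bars for mean and SD. The highest wild-type library is replicate 3 for Fscn1, replicate 1 for Cd274 and Cd40, and replicate 2 for Cd83.

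The wild-type libraries did not order the genes alike. Wild-type replicate 1 was the highest wild-type library for Cd274, Cd40, Cd200r1, Cd80 and Cd86 and the lowest for Fscn1 and Icosl. Wild-type replicate 2 was the highest for Cd83, Tnfsf9 and Pdcd1lg2. Without wild-type replicate 1, 4 genes had groups that did not overlap, Cd274 and Fscn1 lower and Cd86 and Cd200r1 higher in knockout, against 26.9% of all genes. Without wild-type replicate 3 there were 5, Cd274, Cd40, Cd83 and Fscn1 lower and Icosl higher, against 27.9%. Without wild-type replicate 2 or knockout replicate 1 there were 3, with Pdcd1lg2 higher in the one and Cd40 lower in the other, against 28% of all genes each time. Without knockout replicate 2 there were 3, with Cd86 higher, against 26.7%, and without knockout replicate 3 there were 2, against 26.6%. Cd274 and Fscn1 were among them in all 6 cases. Their groups were already apart with all 6 libraries, so, rescaling aside, this outcome was fixed in advance. For the same reason, leaving a library out could hardly lower the count of the set or the share of all genes. Without wild-type replicate 2 the median log2 fold change of the set was -0.02 and without knockout replicate 1 it was -0.03.

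**Figure D4:**
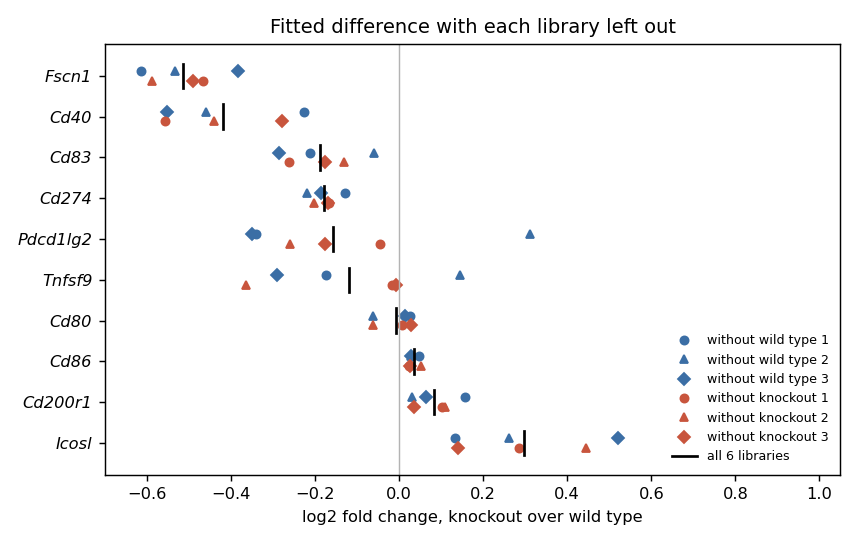
Log2 fold change of knockout over wild type (horizontal axis) for each gene with all 6 libraries (black bar) and with each library left out (symbols). Fscn1, Cd40, Cd83 and Cd274 remain below 0 in all 6, and Icosl, Cd86 and Cd200r1 remain above 0 in all 6. Cd80 lies on both sides of 0, while Pdcd1lg2 and Tnfsf9 lie above 0 without wild-type replicate 2, at 0.31 and 0.14.

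Most of the spread was larger than counting error. For Cd274, which had 46027 to 56092 counts per library, counting alone gives a coefficient of variation of 0.434% in wild type, and the libraries varied by 6.42%. For Cd40 these values were 3.39% and 22.7%, and for Fscn1 2.83% and 16.1%. Cd86 varied by 1.52% in wild type, where counting gives 2.05%. For Pdcd1lg2 they were 13.7% and 48.0% in wild type, where replicate 2 was far above the others, and 14.4% and 14.8% in the knockout.

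**Figure D5:**
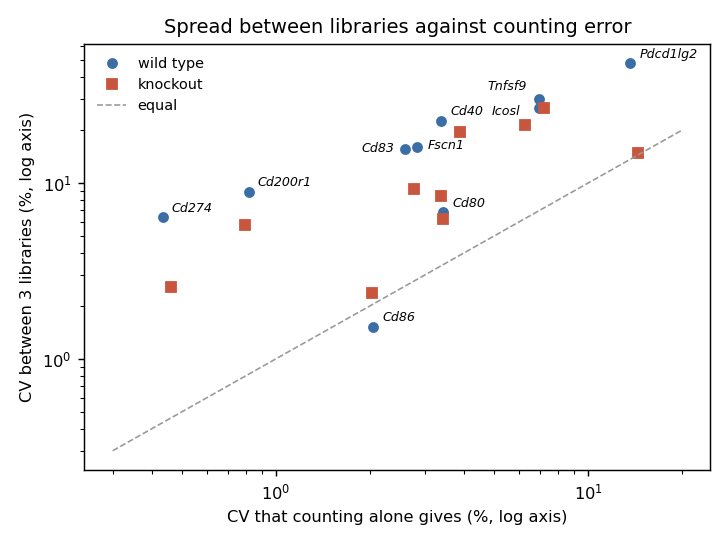
Coefficient of variation between the 3 libraries of a group (vertical, log axis) against that expected from counting alone (horizontal, log axis), for each gene in wild type (circles, named) and knockout (squares). All points lie above the line of equality except Cd86 in wild type, at 1.52% against 2.05%, and among the wild-type points Cd274 lies farthest above it.

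Of the 4 ratios between genes that were tested, none could go below p = 0.1 in an exact two-sided permutation test of 3 libraries against 3. Cd274 relative to Cd80, 2 proteins that also bind each other on the same cell, was 65.3, 65.4 and 61.4 for the wild type against 56.9, 54.6 and 59.1 in knockout libraries in FPKM. Those groups did not overlap (exact two-sided permutation p = 0.1, adjusted over the 4 ratios 0.4).

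Around these genes, the other B7 and TNF-superfamily ligands also gave no call. Of 17 listed, 16 were tested and 0 passed with edgeR, 4 were lower at an unadjusted p under 0.05, and DESeq2 called 1. To set beside this list and those below, 5.71% of all genes were lower at an unadjusted p under 0.05. In either direction it was 10.4%. Over all genes that each tested, edgeR called 0.0677%, DESeq2 2.59% and limma 0.0765%. Tnfsf15, which encodes the ligand of death receptor 3, was at 17.5 ± 3.52 and 8.52 ± 1.02 CPM in the wild type and the knockout (SD, n = 3 each, edgeR adjusted p = 0.083). Tnfsf4, the OX40 ligand gene, was at 0.475 and 0.140 CPM (edgeR adjusted p = 0.323), and Cd48, the most abundant, at 60.4 and 64.1 FPKM. The median log2 fold change of the list was -0.15.

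Of the lymphocyte counter-receptors 14 of 15 were tested and 0 passed with edgeR. At an unadjusted p under 0.05, 1 was lower and 2 were higher, and DESeq2 called 1 lower and 2 higher. Cd28, which encodes the receptor of CD80 and CD86, was at 15.7, 16.2 and 15.7 CPM for the wild type against 20.4, 21.4 and 21.9 CPM for the knockout, without overlap (edgeR adjusted p = 0.087). Havcr2, the TIM-3 gene, was at 21.5 ± 2.06 and 27.5 ± 1.51 CPM (SD, n = 3 each, edgeR adjusted p = 0.207), and Tnfrsf14, the most abundant, at 22.8 and 15.5 FPKM. Markers of T and NK cells had 7 of 8 tested values below 0, a summed level of 18.9 to 22.8 CPM for the wild type against 13.6 to 15.3 CPM for the knockout, and Cd3g at 2.13 and 1.12 CPM (edgeR adjusted p = 0.154). Of these 8 markers 0 passed with edgeR and 2 with DESeq2, and 5 were lower at an unadjusted p under 0.05. Trbc2 was the most abundant, at 3.33 and 1.72 FPKM. The part of lymphocytes in the counter-receptor values was not tested.

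Of the 12 genes of CD40 signalling all were tested, 10 were below 0 with a median of -0.25, 0 passed with edgeR, 6 were lower at an unadjusted p under 0.05 and DESeq2 called 3. Nfkb2 and Relb, which encode the subunits of the alternative NF-κB pathway that CD40 activates, were at 112 ± 4.27 and 46.0 ± 0.261 CPM for the wild type against 89.5 ± 2.97 and 37.3 ± 1.67 CPM for the knockout (SD, n = 3 each, edgeR adjusted p = 0.080 and 0.110). Tnfaip3, the A20 gene and the most abundant of the list, was at 22.0 and 20.3 FPKM (edgeR adjusted p = 0.930). Tnfaip3 varied widely within groups, from 109 to 222 CPM in the wild type. The IKKβ gene Ikbkb, at 79.2 and 76.1 CPM, did not pass (adjusted p = 0.791 with edgeR).

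In the CD200 receptor family and its signalling list, 7 of 8 genes were tested and 0 passed with edgeR or DESeq2, 1 was lower at an unadjusted p under 0.05 and the median was 0.00018. Cd200, the ligand gene, was at 116 ± 3.49 and 105 ± 2.86 CPM (SD, n = 3 each, edgeR adjusted p = 0.340), and Cd200r4 was the most abundant at 74.5 and 68.9 FPKM.

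The list of genes that induce PD-L1 or act on its stability had 14 tested members and 0 called by edgeR. At an unadjusted p under 0.05, 4 were lower and 1 higher, the median was -0.05 and DESeq2 called 3 lower. Irf1, which encodes the interferon response factor that acts at the PD-L1 gene, was at 207, 162 and 141 CPM for the wild type against 76.6, 97.8 and 81.4 CPM for the knockout (edgeR adjusted p = 0.076). Jak1, the most abundant, was at 57.7 and 56.8 FPKM. Wild-type replicate 1 was the highest library for both Irf1 and Cd274, and among wild-type libraries also for Cd40, Cd200r1, Cd80 and Cd86. From wild-type replicate 2 to 3 Irf1 fell from 162 to 141 CPM, while Cd274 rose from 679 to 713 CPM. A link between Irf1 and Cd274 was not tested.

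The list of genes induced together with B7 ligands holds antigen display genes, the adhesion gene Icam1 and cytokine genes such as Il12b, Il15, Il27 and Ebi3. Its median was -0.61 over 13 tested members, all below 0. None passed with edgeR, and 7 were lower at an unadjusted p under 0.05, against 5.71% of all genes. DESeq2 called 7 lower, against 2.59% of all genes called in either direction. Icam1, an adhesion ligand gene, was at 169 ± 16.9 and 117 ± 5.71 CPM, and H2-Ab1, an MHC class II gene, at 209 ± 31.3 and 124 ± 9.86 CPM (SD, n = 3 each, edgeR adjusted p = 0.076 for both). Ctss, the most abundant, was at 6191 and 6003 FPKM. Cd80 and Cd86, with log2 fold changes of -0.0074 and 0.04, lay near 0, but a difference between the lists was not tested.

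Of the actin bundling and filopodia genes 12 of 13 were tested and 1 passed, Cap1, which encodes an actin-regulating protein. It fell from 770 ± 14.9 to 442 ± 6.07 CPM (SD, n = 3 each, edgeR adjusted p = 6.3e-05), and it was listed with its result known. The median of the list was -0.12, 6 were lower at an unadjusted p under 0.05, and DESeq2 and limma each called 1. Cdc42, which encodes a small GTPase that drives filopodia and was the most abundant, was at 227 and 234 FPKM.

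Peritoneal cells other than macrophages also express some of these genes. Dendritic cell markers, which Fscn1 and Cd83 often accompany, summed to 20.9 to 25.2 CPM for the wild type against 17.3 to 20.7 CPM for the knockout. Of 8 tested markers 7 were below 0 and 0 passed with edgeR or DESeq2, with 1 lower at an unadjusted p under 0.05. Ccr7 was at 11.7 and 9.34 CPM and Ccl22 at 3.36 and 2.58 CPM, while Flt3 and Zbtb46, which define the lineage, were at 1.41 and 1.34 CPM for the wild type against 1.44 and 1.30 CPM for the knockout, and Ccl17 had 0 counts in all libraries. Fibroblast and mesothelial markers, of cells that also express Fscn1, summed to 126 to 130 CPM for the wild type against 97.3 to 114 CPM for the knockout. Of 12 tested, 9 were below 0, 0 passed with edgeR and 2 with DESeq2, with 3 lower and 1 higher at an unadjusted p under 0.05. Pdgfra was at 15.0 and 10.2 CPM, Dcn at 16.3 and 11.7 CPM and Sparc, the most abundant, at 6.65 and 6.19 FPKM. The part of these cells in the Fscn1 difference was not tested. Macrophage markers, of which 10 were tested, summed to 20349 to 21595 CPM for the wild type against 12584 to 12728 CPM for the knockout, mostly Lyz2, the 1 that passed with edgeR. DESeq2 called 2, and at an unadjusted p under 0.05, 3 were lower and 1 higher. B cell markers summed to 4.45 to 5.30 CPM for the wild type against 5.39 to 6.59 CPM for the knockout, with 0 of 6 tested past edgeR's or DESeq2's threshold and 0 at an unadjusted p under 0.05. Pax5 was at 0.107 and 0.212 CPM, Cd79a at 0.357 and 0.637 CPM and Ighm, the most abundant, at 1.77 and 1.76 FPKM, and Fcer2a had 0 counts in all libraries.

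Among 10626 named protein-coding genes of at least 1 CPM outside the set, the pattern over the 6 libraries most like that of Cd40 was that of the chemokine gene Cxcl2, at a root mean square difference of 0.0744 between centred log2 CPM values. Cxcl2 was at 27.7, 20.8 and 19.9 CPM for the wild type against 20.3, 18.0 and 15.1 CPM for the knockout. Septin1 (0.0919) and Boc (0.109) followed. For Cd274 the nearest were Clcn7 (0.0256), at 1172, 1095 and 1102 CPM for the wild type against 982, 1031 and 979 CPM for the knockout, Mapk9 (0.0258) and Pde7a (0.0292). Likeness over 6 libraries that share their 2 groups is given as a description.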

How the data were processed

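Paired-end reads of poly(A) RNA were made, per the labels' protocols. The submitters' processing notes name HISAT2 2.0. For the counting tool, annotation, strand and genome build, nothing is given in the sources used. Per the file headers, the authors deposited a whole-number count and an FPKM value per gene and library. Another 12 value columns carry names of none of the 6 samples and were left unused. Coordinates are as deposited. For 9 of the 10 genes (all but Icosl) they equal those of GENCODE M21 (GRCm38).

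Groups follow the genotype in the titles. The 16239 genes that filterByExpr kept were TMM-scaled and tested two-sided with edgeR 4.0.16 (R 4.3.3) quasi-likelihood fits (genotype alone in the model) and Benjamini-Hochberg adjustment at 0.05. The SE is the log2 fold change over the root of its F, and intervals are at 95%. Fold changes are knockout over wild type. No library was a duplicate: within groups, chi-square over its degrees of freedom was 36.6 to 42.8 for each pair. The fit was tested on simulated data. Alternatives were no filter, RLE scaling, DESeq2 1.42.0, limma 3.58.1 on log2(FPKM + 1) and log2(FPKM + 0.1) for genes reaching FPKM 1 in 3 or more libraries, the replicate number as a block, and each library left out. Promoters are RefSeq's (GRCm38.p6).

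The set, the lists and the tests were chosen with earlier results of these data known. Named are the 10 genes, Dclk1, Ikbkb, Tnf and Lyz2, each list's called genes or otherwise its 2 of smallest p, and its most abundant gene. One result that this rule names is not reported here. Tnf fell from 35.5 to 22.4 CPM (edgeR adjusted p = 0.027), a call lost in 4 of the 6 fits with 1 library left out (adjusted p = 0.085 to 0.117). Adgre1, Cd68, Flt3, Zbtb46, Batf3, Clec9a, Xcr1 and genes with 0 counts were chosen after their values were seen.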

Additional observations from a re-analysis of the deposited data

How the results depend on the processing

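Of the 10 genes, 0 passed with edgeR under any scaling, filter, block or left-out library, and 0 of 8 with limma, while DESeq2 called 1, Fscn1. Icosl and Pdcd1lg2 were below the FPKM minimum and have no limma value. The count of all genes called was 11, and 7 with no filter, 421 with DESeq2 and 3 with the replicate block. With single libraries left out it was 7 to 35, the set's median log2 fold change was -0.24 to -0.015, and 2 to 5 genes of the set did not overlap. Leaving a library out could hardly bring this last count below the 2 found with all libraries. The fitted value of Cd80 changed sign, at 0.0044 and 0.0060 with limma (pseudocounts 1 and 0.1), and was -0.063 to 0.029 with single libraries left out. Pdcd1lg2 was at -0.35 to 0.31 and Tnfsf9 at -0.36 to 0.14 with single libraries left out, above 0 only without wild-type replicate 2. Deviations of same-numbered libraries from their group means correlated at 0.049, 0.027 and 0.017 over all genes tested. No clear sign of pairing by number was thus seen, though pairing is not excluded. The replicate block called 0 of the 10 genes. Tnf, called with all libraries, lost its call with the block (adjusted p = 0.143) and without wild-type replicate 1 or 3 or knockout replicate 2 or 3 (edgeR adjusted p = 0.085 to 0.117). Pdcd1lg2, with 36 to 84 counts, has a counting error of 13.7% in wild type, below its spread of 48.0% between libraries.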
